A study of Mus musculus with 12 samples.

Results

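Endothelial marker genes identify the cells that line blood vessels, and 10 of them were followed through the bulk RNA-seq of the mouse submandibular gland (SMG): Pecam1, Cdh5, Kdr, Flt1, Tek, Tie1, Vwf, Eng, Emcn and Thbd. They were taken by symbol from the 56065 genes of the deposited count table, by a rule that used no measured value, and all 10 were among the 17893 genes that passed the filter on low counts. The glands came from mice 8 weeks old in 4 groups of 3: wild-type (WT) C57BL/6J females, WT males, and knockout (KO) females and males of the strain C57BL/6J-Pou2f3em1Cbwi/J, written Pou2f3-/-. Pou2f3 is the transcription factor that tuft cells, rare chemosensory cells of epithelia, depend on, and the knockout is global, so these mice lack tuft cells in every organ. The comparisons ask how the genotype acts within each sex and how the sexes differ within each genotype.

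Endothelial cells form the capillaries that bring water, salts and nutrients to the acini and ducts of a salivary gland. They are held together by junction proteins and live on signals from the tissue around them, chiefly the vascular endothelial growth factors (VEGF), which act through the receptors encoded by Kdr and Flt1, and the angiopoietins, which act through the TIE receptors. In rodents the SMG is strongly dimorphic: the granular convoluted tubules of males are large and fill with kallikreins, growth factors and renin.

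Total counts ran from 47031917 to 67881902 per library, and no member had fewer than 62 counts in any library. The groups differed in composition. The 20 most abundant genes took 76.8% to 79.3% of counts in WT females, 72.3% to 75.7% in KO females, 51.8% to 60.7% in WT males and 57.3% to 61.5% in KO males, and the TMM factors that correct library sizes for this rose from 0.625 to 0.759 in WT females to 1.04 to 1.45 in WT males. Levels are TMM-adjusted CPM, the share of the library that a gene takes after that correction, fold changes are log2 values ± SE, and a gene is called at an adjusted p under 0.05 (edgeR, Benjamini-Hochberg over all genes tested). Pou2f3 itself had 0 to 10 counts in wild-type and 0 to 3 in knockout libraries, too few to check the labels. Of 6 tuft cell markers only 2, Dclk1 and Avil, passed the filter, and 0 were called lower in knockouts of either sex. Avil was called higher in KO females (2.06, adjusted p = 0.0139, edgeR), beside 17.6% of all genes. The loss of tuft cells was therefore not seen in these libraries. Granular convoluted tubule markers summed to 387 to 1040 CPM in female and 39199 to 70156 CPM in male libraries, as the sex labels have it. A lower level of these genes in whole gland can mean fewer endothelial cells, less of their RNA per endothelial cell, or a change in other cells of the gland. Bulk samples cannot tell these apart.

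The endothelial markers were detected in every library. The summed level of the 10 genes was 74.5 to 95.5 CPM in WT females, 73.9 to 83.8 in KO females, 50.3 to 66.0 in WT males and 44.5 to 61.1 in KO males, and none of them was at 0 in any library. With TMM scaling the sums of the male and female libraries did not overlap within either genotype, while those of the genotypes overlapped within either sex.

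**Figure D1:**
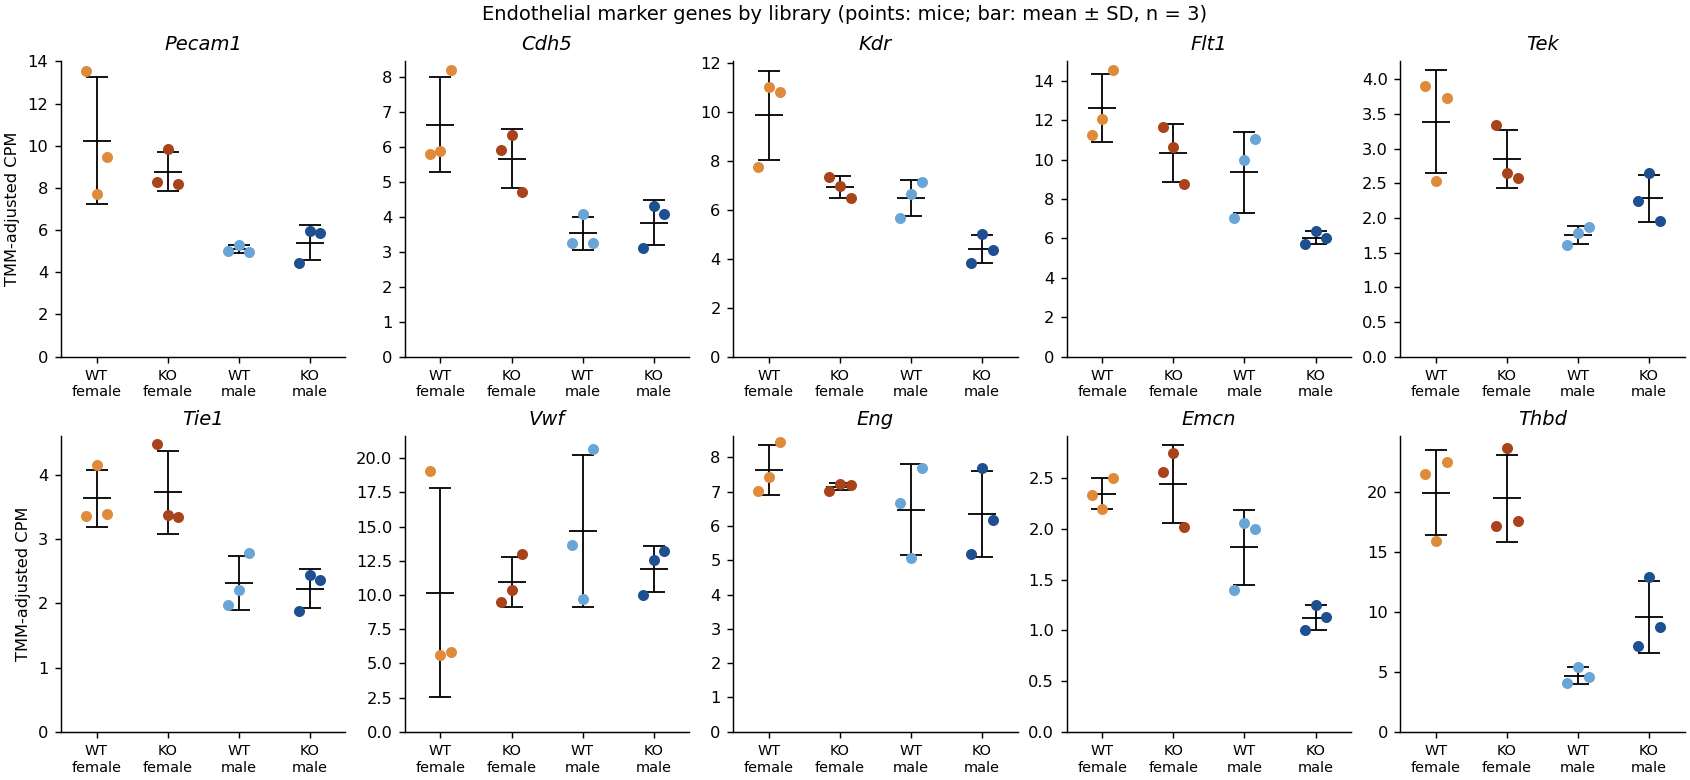
Level of each of the 10 endothelial marker genes (TMM-adjusted CPM, linear axes from 0) in the 3 mice of each group; points are mice, the bar is the mean ± SD. Kdr, Flt1 and Emcn are lowest in the KO males, Thbd is lowest in the WT males, and Vwf is spread most widely, with 1 WT female at 19.0 CPM and the other two near 6.

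Compared per kb of the canonical transcript, Thbd was the most abundant member in WT females at 5.36 ± 0.956 CPM per kb (SD, n = 3), followed by Pecam1 at 2.79 ± 0.815, and the values of these neighbours did not overlap. In KO females the order opened in the same way, with Thbd at 5.23 ± 0.977 and Pecam1 at 2.39 ± 0.251 CPM per kb. In WT males Thbd was only the fifth, at 1.26 ± 0.189 CPM per kb. There Eng led at 1.86 ± 0.378 and neighbours over the first 7 places overlapped, so that no 2 neighbours there differed beyond their spread. In KO males Thbd was again the highest at 2.57 ± 0.803, overlapping Eng at 1.82 ± 0.362 CPM per kb. The bottom of the order was Tek in 3 groups, between 0.355 and 0.686 CPM per kb, and Emcn in KO males at 0.430 ± 0.0473.

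Kdr encodes VEGF receptor 2, the main signalling receptor for VEGF-A on endothelium. Its level was 7.76, 11.02 and 10.8 CPM in WT females and 7.35, 6.95 and 6.48 in KO females. In WT males it was 5.67, 6.64 and 7.12, and in KO males 3.84, 4.99 and 4.35. In both sexes every knockout library lay below every wild-type library of that sex. The change was called in females, at -0.51 ± 0.15 (adjusted p = 0.0202, edgeR), a 1.42-fold lower level. In males it was -0.56 ± 0.15 and was not called (adjusted p = 0.174). The test of the difference between those effects gave 0.05 ± 0.22 (adjusted p = 0.885). The female call was lost without WT female 2, WT female 3 or KO female 3 (-0.51 to -0.47, adjusted p 0.0588 to 0.0656). When libraries were scaled by total counts alone, the female value was 0.01, where the median of all genes was 0.53.

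Flt1 encodes VEGF receptor 1, which binds VEGF-A tightly but signals weakly and so limits the ligand that reaches Kdr. It stood at 11.2, 12.05 and 14.5 CPM in WT females and 11.7, 10.6 and 8.75 in KO females, which overlapped. The males held 7.04, 9.96 and 11.04 CPM in wild type and 5.70, 6.36 and 6.03 in knockout, so all KO males were below all WT males. The change was -0.28 ± 0.16 in females (adjusted p = 0.197) and -0.63 ± 0.17 in males (adjusted p = 0.151), and neither was called by edgeR. The study used DESeq2, and the DESeq2 fit made here over all 12 libraries is not the study's own. It gave a male change of -0.61 with an adjusted p of 0.0402. Over the other normalizations, filters and fits and with each library left out in turn, that adjusted p ran from 0.0330 to 0.525.

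Both receptors have a promoter window in RefSeq (GRCm38.p6), as do Tek, Tie1, Eng and Emcn, while Pecam1, Cdh5, Vwf and Thbd were not matched. Because endothelial promoters are classically bound by ETS and GATA factors, the windows (250 bases before to 50 bases after the start) were searched on both strands for the ETS core AGGAAG and the GATA core AGATAA. The ETS core was in 4 of the 6 windows (Flt1, Emcn, Eng and Tie1), each with 2 matches, and in 35.4% of all 32851 windows of that length. The GATA core was in 1 of 6 (Tek, 37 bases after the start) and in 11.2% of all windows, and no matches overlapped. The 250 bases before the start of the 3 genes whose KO male levels lay below all other 9 libraries are printed to set the receptors beside Emcn. How many of all genes had that pattern was not counted. The ETS core or its reverse complement is in capitals: Flt1 carries it at 129 and 53 bases before the start, Emcn at 174 and 93, and Kdr has no match to these letters in its window. The printed stretches lie at chr5:75978456-75978705 (minus strand), chr5:147726012-147726261 (minus strand) and chr3:137340828-137341077 (plus strand), and each is written 5′ to 3′ along its gene.
Kdr: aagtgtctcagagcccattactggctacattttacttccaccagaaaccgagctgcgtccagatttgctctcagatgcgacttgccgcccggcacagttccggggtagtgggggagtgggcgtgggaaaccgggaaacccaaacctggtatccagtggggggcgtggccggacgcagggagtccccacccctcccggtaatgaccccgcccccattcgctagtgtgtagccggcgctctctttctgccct
Flt1: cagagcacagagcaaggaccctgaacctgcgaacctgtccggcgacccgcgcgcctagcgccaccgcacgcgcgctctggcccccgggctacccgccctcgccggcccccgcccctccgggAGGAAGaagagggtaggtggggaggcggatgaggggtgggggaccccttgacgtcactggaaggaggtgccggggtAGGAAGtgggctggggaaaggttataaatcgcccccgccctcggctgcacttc
Emcn: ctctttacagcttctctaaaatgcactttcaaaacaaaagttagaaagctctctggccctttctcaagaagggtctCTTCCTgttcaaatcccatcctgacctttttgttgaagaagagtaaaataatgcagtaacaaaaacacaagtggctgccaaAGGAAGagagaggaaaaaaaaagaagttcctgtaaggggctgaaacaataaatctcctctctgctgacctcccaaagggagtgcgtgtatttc
By base composition the full windows differ as well: 70.7% G and C in Flt1, 60.7% in Kdr and 41% in Emcn, against a median of 52.7% over all windows. A match is a description of the letters, not of binding.

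Emcn encodes endomucin, a sialomucin on the luminal face of capillary and venous endothelium. Its level was 2.33, 2.20 and 2.50 CPM in WT females and 2.56, 2.75 and 2.02 in KO females. In WT males it was 1.40, 2.06 and 2.00, and in KO males 1.00, 1.25 and 1.13. The KO males stood below all other 9 libraries. The change was 0.06 ± 0.21 in females (adjusted p = 0.846) and -0.69 ± 0.21 in males (adjusted p = 0.207), and the difference between them, 0.75 ± 0.29, was not called (adjusted p = 0.0751).

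Thbd encodes thrombomodulin, the endothelial surface protein that turns thrombin from a clotting enzyme into an activator of protein C. It had 21.5, 15.9 and 22.5 CPM in WT females and 17.2, 23.7 and 17.6 in KO females. In WT males it had 4.06, 5.44 and 4.55, and in KO males 7.12, 12.9 and 8.72. The female groups overlapped, and the KO males lay between the WT males and the females without touching either. The change was -0.03 ± 0.21 in females (adjusted p = 0.919) and 1.03 ± 0.22 in males (adjusted p = 0.0889). The difference between these effects was -1.07 ± 0.30 and was called (adjusted p = 0.0235). It was not called without WT male 1 (-0.98, adjusted p = 0.0657), WT male 3 (-1.05, adjusted p = 0.0524) or KO male 2 (-0.80, adjusted p = 0.0522), nor with total-count scaling (-0.47, adjusted p = 0.21). Total-count scaling moved the median of this difference over all genes by 0.617.

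The male change of Thbd turned on the test. DESeq2 gave 1.05 with an adjusted p of 0.000589, edgeR without the filter on low counts gave 1.04 with 0.00115, and edgeR without KO male 1 gave 1.21 with 0.0130, while the range over all these alternatives reached 0.407, without KO male 2 (0.76). That mouse had the highest Thbd of the KO males and also the highest macrophage and adipocyte sums of its group.

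Vwf encodes von Willebrand factor, which endothelium stores and releases to capture platelets. Its level was 19.0, 5.63 and 5.87 CPM in WT females, 9.51, 10.4 and 13.02 in KO females, 13.7, 9.69 and 20.7 in WT males and 9.97, 12.5 and 13.2 in KO males. All groups overlapped. No comparison of it was called with TMM scaling and all 12 libraries, and its spread within groups, an SD of 0.59 on the log2 scale, was the widest of the 10 (0.19 to 0.31 for the others). Without WT female 1 the female change went from 0.10 ± 0.40 to 0.87 (adjusted p = 0.0254, with 0.0254 to 0.939 over the alternatives), and the difference of WT males from WT females went from 0.52 to 1.32 (adjusted p = 0.00304), higher in males. That library also had the highest Pecam1 and Tek of its group and the highest macrophage sum of all 12, and the part of these in its Vwf was not tested.

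Pecam1 and Cdh5 encode the junction proteins CD31 and VE-cadherin. Pecam1 was at 13.6, 7.72 and 9.46 CPM in WT females, 8.29, 9.84 and 8.19 in KO females, 5.0, 5.30 and 4.97 in WT males and 4.44, 5.94 and 5.84 in KO males. Cdh5 was at 5.80, 5.88 and 8.19 CPM in WT females, 5.91, 6.35 and 4.72 in KO females, 3.25, 4.08 and 3.25 in WT males and 3.11, 4.30 and 4.08 in KO males. The genotypes overlapped in both sexes for both genes. Pecam1 differed by -0.23 ± 0.18 in females and 0.09 ± 0.18 in males, Cdh5 by -0.22 ± 0.18 and 0.12 ± 0.18, and the adjusted p ran from 0.360 to 0.909.

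Tek and Tie1 encode the TIE receptors, Tek being the receptor for the angiopoietins and Tie1 its partner. Tek was at 3.91, 2.54 and 3.73 CPM in WT females, 3.34, 2.65 and 2.57 in KO females, 1.61, 1.79 and 1.87 in WT males and 2.24, 2.64 and 1.96 in KO males. All KO males were above all WT males, but the change of 0.38 ± 0.20 was not called (adjusted p = 0.510). Tie1 was at 3.37, 4.15 and 3.39 CPM in WT females, 4.48, 3.37 and 3.34 in KO females, 1.97, 2.20 and 2.78 in WT males and 1.89, 2.45 and 2.36 in KO males, and the genotypes overlapped in both sexes.

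Eng encodes endoglin, a co-receptor for bone morphogenetic proteins. Its level was 7.02, 7.43 and 8.45 CPM in WT females, 7.03, 7.22 and 7.18 in KO females, 6.66, 5.07 and 7.69 in WT males and 5.18, 7.69 and 6.17 in KO males. No comparison of Eng was called with TMM scaling, and the genotypes overlapped in both sexes.

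Set together, 1 of 10 members was called in females, lower in the knockout (Kdr), beside 36.9% of all genes tested called in either direction and 19.3% called lower. The same 1 member had groups without overlap, beside 49.3% of all genes. In males 0 of 10 were called by edgeR, beside 0.235% of all genes. Of the 10, 4 had an unadjusted p under 0.05 (Thbd, Flt1, Kdr and Emcn), beside 11.5% of all genes. DESeq2 and edgeR without the filter each called 2, beside 2.27% and 1.26% of all genes. Groups did not overlap for 5 of 10 in males (Tek and Thbd higher, Kdr, Flt1 and Emcn lower), beside 14.5% of all genes. The difference between the sexes was called for 1 of 10 (Thbd), beside 25.7% of all genes. The median change of the members was -0.16 in females, where the median of all genes was 0.03, and -0.04 in males, where it was also -0.04.

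**Figure D2:**
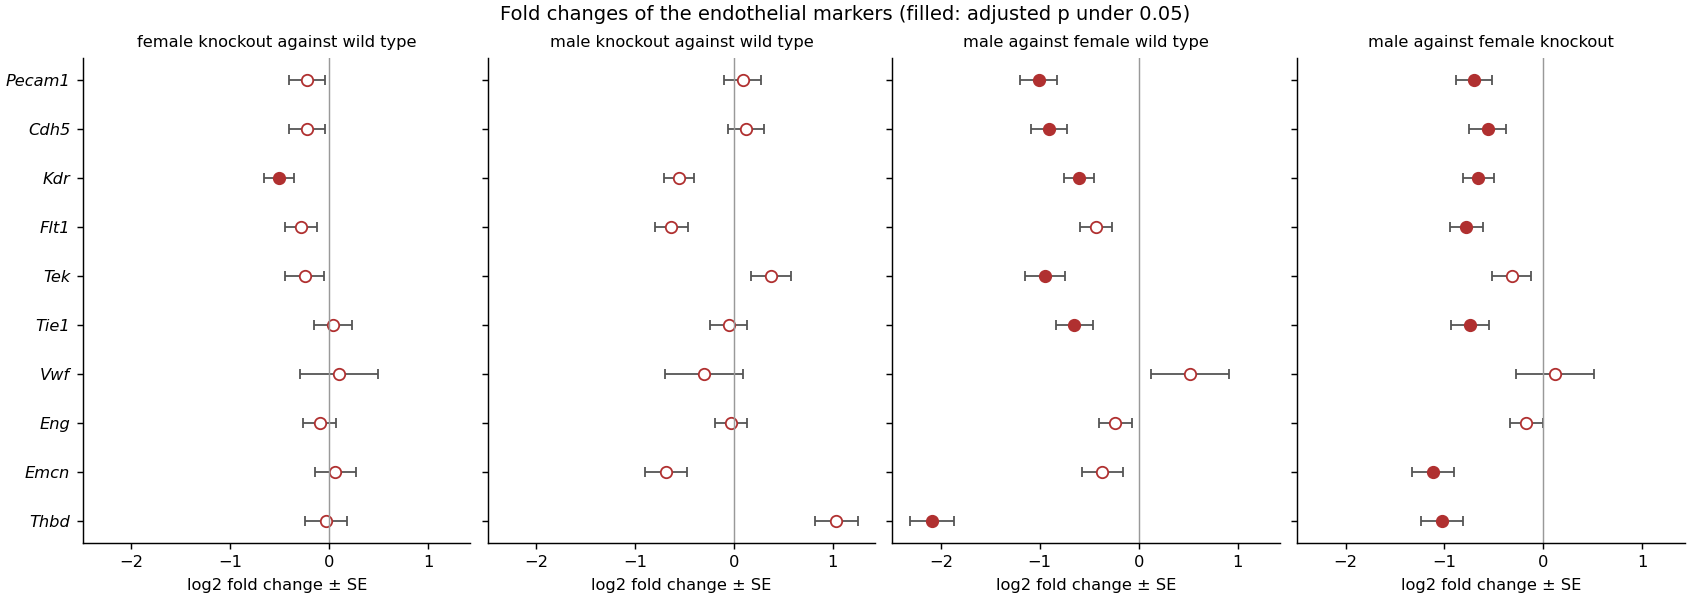
Log2 fold change ± SE of the 10 genes in the genotype and sex comparisons; filled points have an adjusted p under 0.05 (edgeR). With TMM, all but Vwf lie below 0 in both sex comparisons; with total-count scaling Kdr, Flt1, Tie1, Eng and Emcn lie above 0 in the wild-type one, and Eng also in the knockout one.

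With TMM scaling the median change of the members between males and females was -0.63 in wild type and -0.68 in knockouts, where the medians of all genes were 0.06 and -0.02. Between WT males and females 6 of 10 were called lower with TMM (Thbd, Pecam1, Tek, Cdh5, Tie1 and Kdr), while with total-count scaling 1 was called lower (Thbd) and 3 higher. With TMM 36.5% of all genes were called in either direction and 16% called lower, and with total counts 1.64% were called lower and 67.7% higher. Groups did not overlap for 8 of 10 (these and Flt1 and Emcn), beside 20.9% of all genes. Between KO males and females 7 of 10 were called lower (Emcn, Thbd, Flt1, Tie1, Pecam1, Kdr and Cdh5), beside 43.5% called in either direction and 20.3% called lower, and the same number did not overlap, beside 27.5%. The sex comparisons share their groups with the genotype comparisons, so they are not independent of them.

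The largest of these was Thbd in wild-type mice at -2.09 ± 0.22 (adjusted p = 1.16e-05), a 4.26-fold lower level in males. Pecam1 followed at -1.01 ± 0.18 (adjusted p = 0.000947), Tek at -0.95 ± 0.20 (0.00278) and Cdh5 at -0.91 ± 0.18 (0.00202). In knockout mice Emcn led at -1.12 ± 0.21 (adjusted p = 0.000992), with Thbd at -1.02 ± 0.21 (0.00193) and Flt1 at -0.78 ± 0.17 (0.00234). Tie1 in wild type lost its call without WT female 2 or WT male 1 (adjusted p 0.0668 and 0.0759). In knockouts Cdh5 lost it without WT female 2, KO female 1, KO female 2 or KO male 1 (0.0532 to 0.141), and Tie1 without KO female 1 (0.0634).

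How far this is a difference in vessel RNA per total RNA depends on the scaling. With total counts alone, a setting added after the data were seen, the median of all genes moved by 0.891 between WT males and females and by 0.272 between knockouts. In wild type, Thbd was then still called lower in males (-1.22, adjusted p = 0.000176), while Flt1 (0.46, 0.0270), Eng (0.69, 0.0132) and Vwf (1.40, 0.0158) were called higher, and Kdr (0.30), Tie1 (0.25) and Emcn (0.51) had changed sign without a call. In knockouts Emcn (-0.84), Thbd (-0.74) and Flt1 (-0.51) were still called lower, beside 7.7% of all genes.

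**Figure D3:**
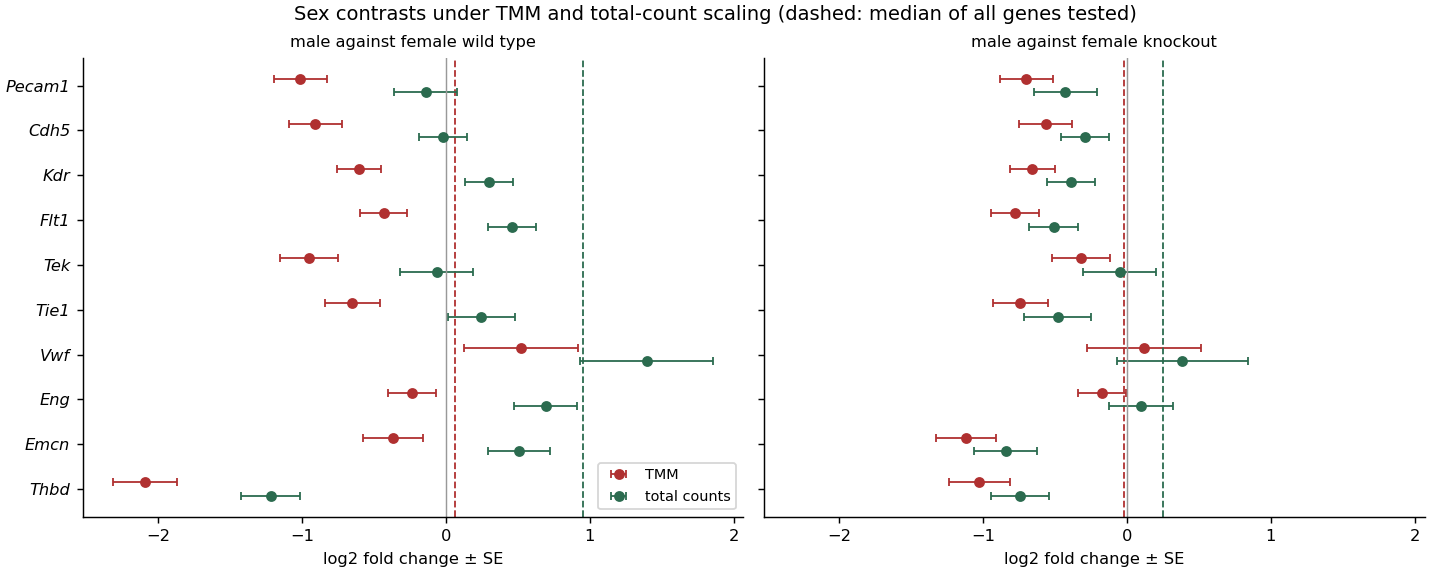
Log2 fold change ± SE between males and females under TMM (red) and total-count scaling (green), with the median of all genes tested as a dashed line in the same colour. In wild type the points and the dashed line move together by 0.891, so the sign of Kdr, Flt1, Tie1, Eng and Emcn depends on the scaling; Thbd and, in knockouts, Emcn stay below 0 under both.

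A ratio of 2 members within a library needs no scaling. Counts per Cdh5 count were computed after the data were seen, with Cdh5 as the reference because it is a junction protein found on all endothelium, and they are given with no test, since 3 against 3 cannot reach an exact permutation p below 0.1. Among males, Kdr was 1.07 to 1.23 per Cdh5 count in knockout and 1.63 to 2.19 in wild type. Flt1 was 1.48 to 1.83 in knockout and 2.17 to 3.39 in wild type. Emcn was 0.277 to 0.321 in knockout and 0.430 to 0.614 in wild type. Thbd went the other way, 2.13 to 3.00 in knockout and 1.25 to 1.40 in wild type. None of these 4 pairs of ranges overlapped, while those of Pecam1, Tek, Tie1, Vwf and Eng did. These ratios share the same denominator and were computed for the members only, so no share of all genes stands beside them. For the levels themselves, the male genotypes did not overlap in 14.5% of all genes.

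Among females, Kdr (1.1 to 1.37 in knockout, 1.32 to 1.87 in wild type), Flt1 and Thbd overlapped between genotypes, and Emcn was slightly higher in the knockout, 0.427 to 0.434 against 0.306 to 0.403. Between wild-type mice, Thbd per Cdh5 count was 1.25 to 1.40 in males and 2.70 to 3.70 in females, so its lower male level exceeded that of Cdh5. Flt1 and Emcn were higher per Cdh5 count in WT males than in WT females. Between knockouts Emcn went the other way, 0.277 to 0.321 in males against 0.427 to 0.434 in females. Vwf was higher in KO males there, 2.92 to 3.23 against 1.61 to 2.76, and the other members overlapped.

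**Figure D4:**
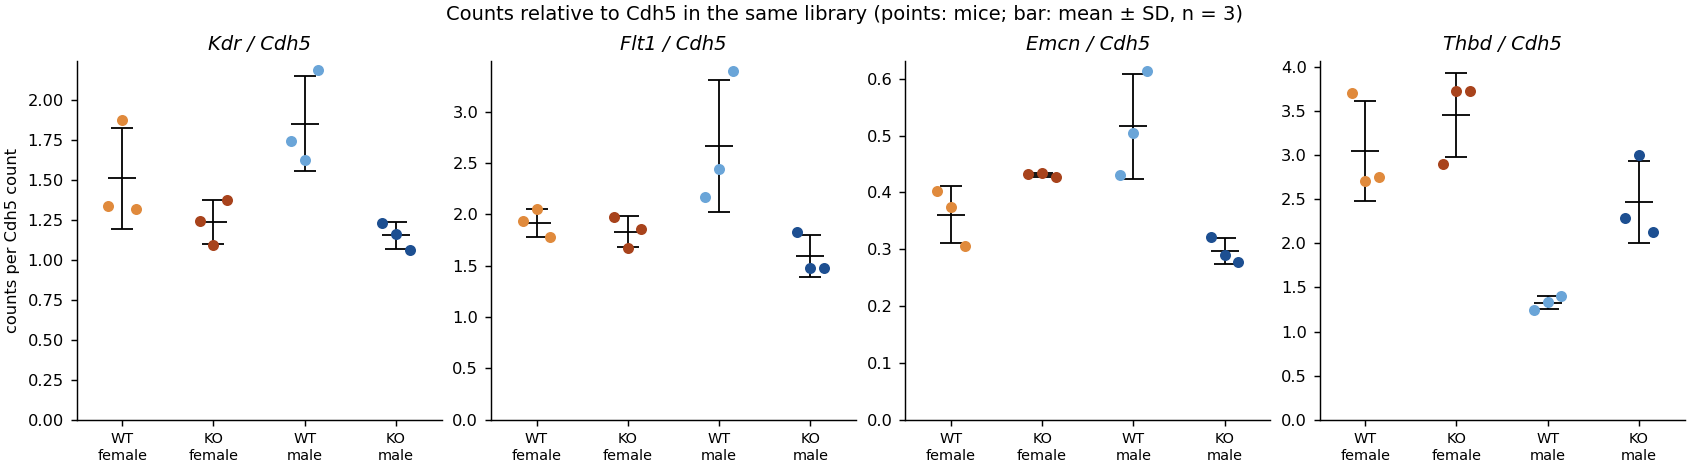
Counts of Kdr, Flt1, Emcn and Thbd divided by the Cdh5 count of the same library; points are mice, the bar is the mean ± SD, and the axes start at 0. The KO males lie below the WT males for Kdr, Flt1 and Emcn and above them for Thbd, with no overlap.

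The levels of the members moved together over the 12 libraries to different degrees. The Pearson r of log2 CPM was above 0 in 36 of 45 pairs, with a median of 0.61, and the median fell to 0.34 when each library was taken as its deviation from its group mean. Kdr and Flt1 gave 0.94 over the libraries and 0.73 as deviations, and Flt1 and Emcn 0.94 and 0.87. Vwf had a median r of -0.32 with the others. All points share the sex difference and the library scaling, so these values are a description. The 10 genes outside the set whose levels were most like the mean of the members, by r over the 12 libraries, were Tor3a at 0.97, then Sirpa, 5033406O09Rik, Vnn1, Ttyh3, St3gal1, AU020206, Styx, Apol9b and Sh3d19 at 0.94, and none is in the endothelial lists used here.

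Genes of the same cells outside the 10 were followed in lists. Counts of 0 in them are edgeR's, and the number with an unadjusted p under 0.05 and the calls of DESeq2 are given beside them. The counts stand beside 36.9% of all genes called in females, 19.3% lower and 17.6% higher in the knockout, and 0.235% called in males. An unadjusted p under 0.05 was reached by 8290 of 17893 genes in females and by 11.5% of genes in males. DESeq2 called 6975 of 17893 genes in females and 2.27% of genes in males. Of 20 other pan-endothelial genes 1 was called lower in KO females, Adgrl4, an adhesion receptor of endothelium, at -0.81 ± 0.23 (adjusted p = 0.0152), and 0 were called in males (5 with an unadjusted p under 0.05, and Cd34, Podxl and Adgrf5 called by DESeq2). Adgrf5, Podxl and Mmrn2, the next by p in females, stood at -0.26, -0.32 and -0.49 there. In WT males 9 of the 20 were called lower than in females with TMM, among them Adgrl4 (-1.06), Mmrn2 (-0.99) and Podxl (-0.46), beside the 16% of all genes given above. So were 4 of 12 endothelial transcription factors and 3 of 7 capillary genes, and 1 of 8 arterial and 1 of 5 tip cell genes. None of 5 venous genes was called, and 1 of 7 lymphatic genes was called higher, beside 20.5%. In KO males the counts called lower were 8, 2, 1, 2 and 1 in that order, beside 20.3%. There 0 venous genes were called, and 1 capillary and 2 lymphatic genes were called higher, beside 23.2%. Of 12 endothelial transcription factors none was called in either genotype comparison, with Klf4 at 0.33 in females and 1.13 ± 0.23 in males (adjusted p = 0.0728), Fli1 at -0.31 and 0.77, Sox18 at -0.28 and 0.18, and Mecom at 0.23 and -0.25. In females 0 of them had an unadjusted p under 0.05 and DESeq2 called 0, while in males 4 had one and DESeq2 called Klf4 and Klf2 higher.

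Of 7 capillary genes 3 were called lower in KO females, beside the 19.3% of all genes given above. Rgcc, a cell-cycle regulator high in capillaries, fell from 62.7 ± 17.3 to 28.7 ± 2.84 CPM (SD, n = 3), a change of -1.13 ± 0.25 (adjusted p = 0.00442). Cav1, the coat protein of caveolae, changed by -0.79 ± 0.22 (0.0149) and Cd36, a fatty acid transporter, by -1.11 ± 0.41 (0.0484), while Cd300lg was at -0.77 (0.0502). Cav1 and Cd36 are also abundant in adipocytes, and the adipocyte sum was 2.30 to 61.3 CPM in WT females and 0.686 to 4.06 in KO females. Its part in the capillary values was not tested. In males no capillary gene was called by edgeR, 2 had an unadjusted p under 0.05 (Rgcc and Cd36) and DESeq2 called Rgcc lower. Cd36 was higher in KO males, at 1.46 ± 0.41 (adjusted p = 0.184, edgeR), opposite to its female change and to Rgcc there. Rgcc was 24.4 ± 5.85 CPM in wild type and 11.8 ± 4.46 in knockout, a change of -1.05 ± 0.26 (adjusted p = 0.123).

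No arterial gene of 8 and no venous gene of 5 tested was called in either genotype comparison, beside 36.9% of all genes called in females and 0.235% in males. The arterial genes named by rank were Jag2 (0.35 in females), Sema3g (-0.58), Gja4 (-0.69) and Gja5 (-0.56), and the venous ones Nr2f2 (-0.10), Ackr1 (-0.17), Aplnr (-0.06) and Ephb4 (-0.03). Of 5 tip cell genes Nid2, a basement membrane protein, was called higher in KO females at 0.35 ± 0.12 (adjusted p = 0.0406), with Angpt2, Cxcr4 and Apln at 0.93, 0.57 and -0.35. None of 7 lymphatic genes was called in either sex, with Prox1, Reln, Flt4 and Ccl21a at 0.76, 0.28, 0.28 and 0.36 in females. DESeq2 also called 0 arterial, venous and lymphatic genes, and an unadjusted p under 0.05 in edgeR was reached by 1 arterial and 1 lymphatic gene in females, 1 lymphatic gene in males and 0 venous genes. In males 0 tip cell genes were called by either tool, and 2 had an unadjusted p under 0.05.

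**Figure D5:**
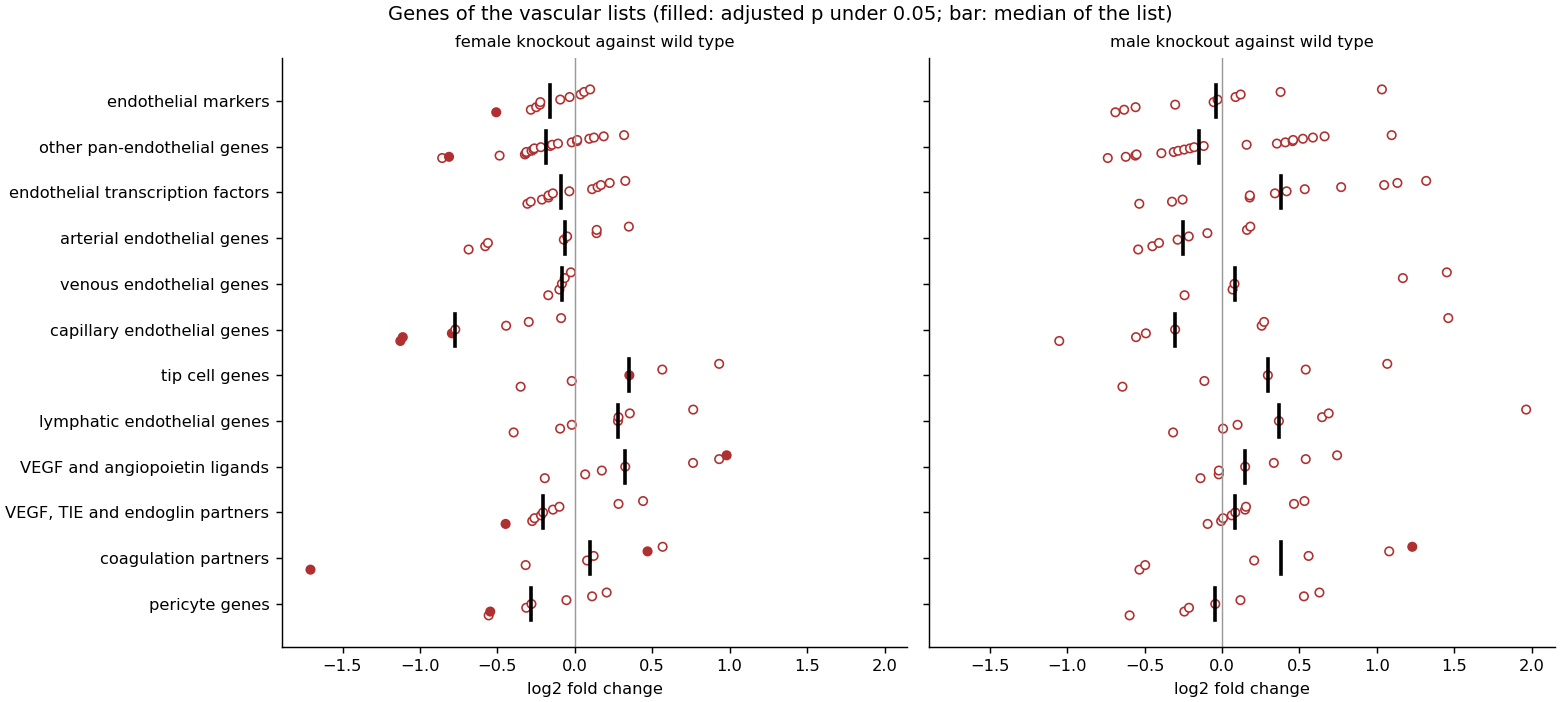
Log2 fold change of each tested gene of the vascular lists in the female and male genotype comparisons; filled points have an adjusted p under 0.05 and the black bar is the median of the list. In females the capillary list has 3 filled points, all below 0, and in males the only filled point is Plat, above 0.

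Among the ligands of these receptors, Vegfa, the ligand of Kdr and Flt1, was at 24.2 ± 5.09 CPM in WT females, 47.8 ± 5.55 in KO females, 325 ± 34.8 in WT males and 321 ± 65.1 in KO males (SD, n = 3). It rose in KO females by 0.98 ± 0.18 (adjusted p = 0.00139), where Kdr fell with TMM, and changed by -0.02 ± 0.18 in males (0.982), and the difference between the sexes was 1.00 ± 0.25 (0.0149). Between WT males and females it differed by 3.75 ± 0.20 (4.78e-08), opposite in sign to both of its receptors with TMM, though with total counts alone the receptors were at 0.30 and 0.46. Of the other ligands, Vegfd, Angpt2 and Vegfb stood at 0.76, 0.93 and -0.19 in KO females and none was called there. In males 0 of the 7 tested were called by edgeR or DESeq2, and 1 had an unadjusted p under 0.05.

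Of the 9 tested partners of the VEGF, TIE and endoglin receptors, Bmpr2, the receptor that endoglin serves, was called lower in KO females at -0.45 ± 0.11 (adjusted p = 0.00819), from 192 ± 7.28 to 141 ± 15.1 CPM (SD, n = 3). Smad6, Nrp1 and Tgfbr2 were at 0.44, -0.27 and -0.26, and none of the 9 was called in males by edgeR or DESeq2, where 2 had an unadjusted p under 0.05. Among the 6 tested coagulation genes, F8, the clotting factor carried by von Willebrand factor, rose in KO females by 0.47 ± 0.15 (adjusted p = 0.0280). Plat, the tissue plasminogen activator made by endothelium, was called higher in KO males, from 1.46 ± 0.139 to 3.42 ± 0.843 CPM, at 1.23 ± 0.22 (adjusted p = 0.0434). It stood at 0.57 ± 0.22 in females (0.0578), and F3, tissue factor, at -0.32 and 0.21.

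Cells that share the vessel wall or the blood were checked in the same libraries. Of 7 tested pericyte genes Rgs5 was called lower in KO females at -0.55 ± 0.20 (adjusted p = 0.0474), with Kcnj8, Abcc9 and Notch3 at -0.56, -0.28 and 0.21, and none was called in males by edgeR or DESeq2, where 2 had an unadjusted p under 0.05. Of 6 smooth muscle and myoepithelial genes 4 were called lower in KO females (Acta2, Tagln, Cnn1 and Myl9), beside 19.3% of all genes. All 6 were called higher in males of both genotypes, beside 20.5% of all genes in wild type and 23.2% in knockouts, against the direction of the endothelial genes with TMM. Other markers were called lower in WT males than in WT females: 6 of 9 macrophage, 4 of 6 adipocyte and 3 of 4 acinar. The share of all genes was 16%. In KO males 3 of 4 acinar markers were called lower than in KO females, beside 20.3%. There 4 of 9 macrophage and 5 of 6 adipocyte markers were called higher, beside 23.2%. The part of these cells in the endothelial sex differences was not tested. Platelet genes, of which only Itga2b and Pf4 passed the filter, summed to 1.11 to 1.59 CPM in WT females, 1.66 to 2.18 in KO females, 1.41 to 2.03 in WT males and 3.11 to 7.25 in KO males, with 1 of the 6 at 0 in each KO male beside 9.97 to 13.2 CPM of Vwf there. Itga2b was called higher in KO females at 1.64 ± 0.49 (adjusted p = 0.0199). In males edgeR called neither, both had an unadjusted p under 0.05, and DESeq2 called both higher.

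Immune, fat and connective tissue markers were summed in the same way. Macrophage markers, with all 9 tested, summed to 110 to 307 CPM in WT females, 93.9 to 152 in KO females, 95.0 to 112 in WT males and 126 to 241 in KO males, and 3 of 9 were called lower in KO females (C1qa, Adgre1 and C1qb), beside 19.3% of all genes. Adipocyte markers, with all 6 tested, summed to 0.599 to 0.942 CPM in WT males and 2.26 to 48.7 in KO males. Fibroblast markers summed to 295 to 320 CPM in WT males and 362 to 617 in KO males, with Dpt called higher at 1.84 ± 0.29 (adjusted p = 0.0175), and blood cell markers to 1.45 to 1.73 and 2.89 to 9.86. In males edgeR called 0 of the 9 macrophage, 6 adipocyte and 4 tested blood cell markers, of which 7, 5 and 3 had an unadjusted p under 0.05 and 1, 3 and 2 were called higher by DESeq2. The sums of the female genotypes overlapped for all 4 lists, although 3 of the 6 adipocyte markers were called lower in KO females (Cfd, Cidec and Plin1), beside 19.3% of all genes, and DESeq2 called 5. The wild-type and KO males did not overlap in the macrophage, adipocyte, fibroblast or blood cell sums, and the part of such tissue in the male values of Thbd, Tek, Kdr, Flt1 and Emcn was not tested.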

How the data were processed

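Bulk RNA of 12 submandibular glands was analysed, 3 per group, with groups taken from the deposited labels. The labels give the molecule as polyA RNA and speak of cell pellets, whereas the methods describe snap-frozen gland and stranded libraries made after removal of ribosomal RNA. The authors made the estimated counts per gene with Salmon 1.10.1 on GRCm39 and deposited them unnormalized (78.7% are whole). The authors also deposited a normalized signal, used here only as scaling factors in an alternative. Of 56065 identifiers, 55563 were named through the Gencode annotation of the reference used here.

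Counts were rounded and fitted with edgeR 4.0.16 in R 4.3.3 (TMM, filterByExpr, quasi-likelihood test, 1 mean per group over all 12 libraries, Benjamini-Hochberg over 17893 genes), and DESeq2 1.42.0 was an alternative. The script was tested on simulated data. CPM divides counts by TMM-adjusted library size; 2 counts were the prior for log2 CPM. With 47031917 to 67881902 counts per library, 3 counts correspond to 0.0399 to 0.0782 CPM. P-values rest on the spread between mice within groups, estimated for each gene over all 4 groups together and moderated across genes. They therefore also use groups outside the comparison.

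The rule for the 10 members uses no measured value, but the members and the lists were chosen with earlier results of these data known. All members were named, and of each other list up to 4 genes with the smallest p in the female genotype comparison, plus any called in the male one; lists of other cell types are given mainly as sums. One gene that this rule names is not reported here. Alternatives changed the normalization (RLE, upper quartile, protein-coding genes only, the 20 most abundant genes left out, the authors' factors), the filter (none, or at least 10 counts in every library), the fit (within each sex or genotype, replicate block, DESeq2) and left out each library in turn. Cdh5 overlaps the antisense gene Gm29682, Kdr Gm32727, Eng Fpgs and Thbd Sstr4; on its own strand Eng also overlaps Gm26236, Mir1954 and Gm56382. The libraries were stranded, but how strand was used in counting is not given in the sources used here. Replicates of a group differed by more than sampling noise.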

Additional observations from a re-analysis of the deposited data

Results flagged for a closer look

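The effect of the Pou2f3 knockout on Thbd differed between the sexes by an interaction test. The female change minus the male change was -1.07 ± 0.30 (SE; adjusted p = 0.0235, edgeR), with -0.03 in females and 1.03 in males. This interaction was called for 25.7% of all genes. For Thbd it was not called without WT male 1, WT male 3 or KO male 2 (adjusted p 0.0522 to 0.0657), nor with total-count scaling (-0.47, adjusted p = 0.21). Total-count scaling also moved the median of this difference over all genes by 0.617, from 0.03 to 0.64. The knockout males were above the wild-type males in 3 of 3 mice, and the female groups overlapped.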

How the results depend on the processing

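With scaling by total counts alone, added after the data were seen, the members called fell from 1 to 0 in the female genotype comparison, whose median became 0.35, from 7 to 3 between knockout males and females, and rose from 1 to 3 in the difference between the sexes, where Kdr, Flt1 and Emcn were called in place of Thbd. That scaling called 40.3%, 38.9% and 32.8% of all genes in these comparisons. In the female genotype comparison the median of all genes then became 0.53. The members' median differed from it by -0.17, against -0.19 with TMM. Kdr became 0.0096 in the female comparison, and between wild-type males and females Kdr became 0.2982, Flt1 0.4608, Tie1 0.2476 and Eng 0.6936. The median of all genes became 0.95 in that wild-type comparison. Upper-quartile normalization also gave 0 called in females (Kdr -0.40, adjusted p = 0.0532). In males the count rose from 0 to 2 without the low-count filter and with DESeq2. Leaving out each library in turn gave 0 to 2 called in females, 0 to 1 in males, 0 to 2 for the difference between the sexes, 5 to 8 between wild-type and 5 to 7 between knockout males and females, with medians of -0.29 to -0.14 in females and -0.15 to 0.08 in males. Without wild-type female 1 Vwf was also called in the difference between the sexes (1.14, adjusted p = 0.0316), and without wild-type female 2 Tek was (-0.88, 0.0354). The cause of these changes was not tested.

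Same-numbered mice did not deviate together (r of -0.11 to 0.05 in females and -0.13 to 0.09 in males). The replicate block gave 1 called in females, 0 in males, 1 for the difference between the sexes, and 7 and 7 between males and females, Flt1 being added in wild type (-0.45, adjusted p = 0.0214). Flt1 was called there in 11 of 22 settings. Of the single-gene values under all settings, 1026 kept their direction and call, 63 uncalled values changed sign, 24 gained a call, 22 lost it and 5 called or newly called values reversed. With 3 mice per group and 62 to 1451 counts per member and library, small changes were not detectable.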
